A study of Homo sapiens with 6 samples.

Results

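Molecular chaperones hold newly made or damaged proteins until they are folded, and the 44 genes described here encode the chaperones of the cytosol and the mitochondria together with their helpers. The genes were taken by name from a fixed list of 44 symbols, and all 44 were found among the 63236 genes of the deposited table. They occupy 57 rows, since HSPA1A, HSPA1B, DNAJA3 and PFDN6 are listed more than once, and the 13 extra rows are all listed at 0 and were set aside. The RNA came from the acute myeloid leukaemia cell line FUJIOKA, which is human, in 3 libraries with a scrambled control shRNA (shNEG) and 3 with an shRNA against SPINK2 (shSPINK2), a Kazal-type serine protease inhibitor gene. Both kinds of cell were transduced with a lentiviral Tet-pLKO-puro vector, selected with puromycin and kept on doxycycline, which switches the shRNA on, so the controls carry the vector and the drug as well. The sample labels name a pair of SPINK2 shRNAs and the study's methods only the first, and how long the cells had been on doxycycline when RNA was made is not given in the sources used here.

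The table lists for each gene 1 mean normalized count over all 6 libraries, which is the authors' mean and has no replicate error. Its other value columns hold the authors' own comparison of shSPINK2 with shNEG and were not used, so the levels describe both groups together, and how a chaperone differed between them was not analysed here. The means sum to 38425214 normalized counts per library. To compare genes, each mean was divided by the length of all annotated exons of the gene in kilobases; the result is named its level. The line was checked against marker genes, with means of 7777 for CD33, 9179 for PTPRC, 10673 for SPI1 and 1844 for MPO, all of them myeloid or leukocyte genes. CD34 had a mean of 19.6 and KIT of 0.67. HBA1, HBB, EPCAM and ALB, markers of red cells, epithelium and liver, were listed at 0, and among the other markers of foreign cell types the highest mean was the 149 of COL1A1.

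The families work in relays. J proteins bring unfolded clients to HSP70, BAG proteins and the HSP110 proteins HSPA4 and HSPH1 make HSP70 let go of its nucleotide, and STIP1 passes clients on to HSP90. Prefoldin delivers actin and tubulin to the ring-shaped cytosolic chaperonin built from TCP1 and the CCT proteins, and HSPD1 with its lid HSPE1 forms the corresponding chamber in mitochondria. HSF1 is the transcription factor that raises many of these genes under heat or proteotoxic stress, by binding repeats of a short unit that make up the heat shock element.

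By mean and by level the same 3 of the 44 genes came first. HSP90AB1 (ENSG00000096384.19, chromosome 6 from 44246166 to 44253888 on the plus strand of GRCh38), the constitutive HSP90 of the cytosol, had a mean of 74340 normalized counts, HSPA8, the constitutive HSP70, one of 72316, and HSP90AA1, the HSP90 that also responds to stress, one of 60148. These 3 genes held 34.2% of the counts of all 44, which together took 1.58% of the libraries. By level they ranked 35, 61 and 85 among the 16127 protein-coding genes with a mean above 0. Their order depended on the length used: over the canonical transcripts HSPA8 (31942 normalized counts per kilobase) was above HSP90AB1 (29096), and over the coding parts PTGES3, whose coding part is short, was above all 3, at 40584 against 37315 for HSPA8. The top 10% of those genes began at a level of 1077 normalized counts per kilobase, and 27 of the 44 chaperone genes (61.4%) lay above that mark. All but HSPA1A lay above the median level of 114. In bulk RNA a high level in few cells and a low level in all cells cannot be told apart.

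By the median of their genes the groups also differed. HSP90 (18374 normalized counts per kilobase) came first, then the chaperonin (4837) and the HSP90 co-chaperones (2940). The mitochondrial chaperones had a median of 1687 and prefoldin of 1119, while HSP70 (623), the J proteins (605) and the BAG proteins (460) had the lowest medians of the groups with more than 2 genes. HSP90 and the chaperonin held the first places with each of 5 ways of measuring length and pseudogenes, whereas the order of the lower groups varied: by coding length the BAG proteins (4535) stood above the J proteins (3437) and HSP70 (1831).

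The same 3 genes carry the heat shock element in its full form. RefSeq promoters, 300 bases from 250 before to 50 after a start (GRCh38.p14), were at hand for 38 of the 44 genes, 11 of them with more than 1 window. The search was for 3 units in a row with alternating direction, GAANNTTCNNGAA or TTCNNGAANNTTC, which covers both strands. The letters were present in 6 of the 38 genes (15.8%), against 166 of 27305 genes with a promoter window (0.61%). That larger set was not filtered for coding or expressed genes, whereas the 38 are all both, so the shares compare unlike sets. The stretches are given because the 3 genes with the highest levels are among those that hold them. They are written in the direction of transcription, with the fixed letters of the element in capitals.

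HSP90AB1, chr6:44247772-44247796, plus strand: agcaggTTCtgGAAgaTTCatgggc

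HSP90AB1, chr6:44247825-44247849, plus strand: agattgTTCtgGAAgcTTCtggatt

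HSPA8, chr11:123062173-123062197, minus strand: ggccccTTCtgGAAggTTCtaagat

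HSPA8, chr11:123062348-123062372, minus strand: gagcttGAAagTTCcaGAAcgctgc

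HSP90AA1, chr14:102087114-102087138, minus strand: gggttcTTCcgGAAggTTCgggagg

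HSPD1, chr2:197500062-197500086, minus strand: tttctgGAAagTTCtgGAAccgagc

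DNAJA1, chr9:33025270-33025294, plus strand: cgggcgGAActTTCcaGAAcgctcg

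DNAJB6, chr7:157336867-157336891, plus strand: agccgaGAAccTTCgcGAAggtggg

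In HSP90AB1 and HSPA8 the element occurred at a pair of places within the window, and in HSPD1 a second match overlaps the one given. In DNAJA1 it begins 3 bases after the transcription start, and in the other genes it lies before theirs, inside the window searched. The HSPD1 stretches lie between a pair of RefSeq starts of HSPD1, at 105 and 539 bases from the start of HSPE1, its neighbour on the opposite strand, and come within 289 bases of that start. The 6 genes with the element had a median level of 8829 normalized counts per kilobase, from DNAJB6 at 224 to HSP90AB1 at 24946. The 32 genes without it had a median of 1813, from HSPA1A at 20.6 to CCT3 at 7296, so the ranges overlapped widely. The shorter form with a single pair of units, GAANNTTC or TTCNNGAA, which is part of the longer one, was found in 17 of the 38 genes (44.7%) and in 16.2% of all genes. HSPA1A and HSPA1B, the textbook stress-induced HSP70 genes, held the shorter form at almost the same distance before their starts, and no exact match to the full one. The search allowed no mismatch, and both stretches read gac where the last GAA of the full form would stand.

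HSPA1A, chr6:31815431-31815450, plus strand: accctgGAAtaTTCccgacc

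HSPA1B, chr6:31827627-31827646, plus strand: cccctgGAAtaTTCccgacc

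No match was found to the full form in the chaperonin, prefoldin, BAG or HSP90 co-chaperone promoters searched. Of other promoter letters, the GC box (GGGCGG, or CCGCCC on the other strand) was in 31 of the 38 genes (81.6%) and in 48.3% of all genes. The TATA box (TATAAA or TTTATA) was in 3 genes (7.89%), HSPA1A, HSPA1B and STIP1, against 14.0% of all genes, and the CCAAT box (CCAAT or ATTGG) in 13 (34.2%), among them 4 chaperonin genes, against 39.7%. The shares of all genes were again not restricted to expressed protein-coding genes. A letter match is a description of the sequence, and neither binding nor an effect on the levels was tested.

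Within the HSP90 pair, HSP90AB1 was 2.11 times as high per kilobase as HSP90AA1. The factor depended on the length used and was 1.56 over the canonical transcripts and 1.25 over the coding parts, with HSP90AB1 higher each time. Their 5 co-chaperones were all in the top 10%, and the highest exceeded the lowest by a factor of 2.38, which was 2.78 over the canonical transcripts and 5.79 over the coding parts. PTGES3 (p23), which stabilises the closed form of HSP90, was highest at 5731 normalized counts per kilobase. CDC37, the adaptor for protein kinases, followed at 3721 and STIP1, which links HSP70 with HSP90, at 2940. FKBP4, an immunophilin of steroid receptor complexes, had a level of 2656 and AHSA1, an activator of the HSP90 ATPase, of 2413. Of 11 further HSP90 co-chaperones set beside them, 10 were found, with a median level of 448, and only NUDC (2192) reached the top 10%.

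The HSP70 group spanned a far wider range than HSP90. HSPA8 (ENSG00000109971.13, chromosome 11 from 123057489 to 123063230) had a level of 14914 normalized counts per kilobase. The HSP110 proteins came next, HSPH1 at 2856 and HSPA4 at 2197. HSPA13, an HSP70 relative of the microsomal fraction, had 623 and HSPA14, which is bound to ribosomes, 565. HSPA1B reached 503, and HSPA1A stood at 20.6. HSPA8 was 29.6 times as high as HSPA1B, or 63.5 times over the canonical transcripts and 56.7 times over the coding parts. Of 6 further HSP70 genes, without the one of the ER, HSPA6, a strictly stress-induced gene, was highest at 46.4 and HSPA12A was listed at 0.

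HSPA1A and HSPA1B are neighbours on chromosome 6, from 31815543 to 31817946 and from 31827738 to 31830254, and their transcripts are nearly the same over most of their length. HSPA1B had a mean of 1266 normalized counts and HSPA1A of 49.4 (95% Poisson interval 43.95 to 55.37, for counting error only), so that the mean of HSPA1A was 25.6 times lower. HSPA1B shares 36.6% of its exonic bases with ENSG00000285565, a gene on the same strand. With whole means divided by the unshared exon length alone, it was 38.6 times as high as HSPA1A, against 24.5 times over all exons. That division keeps any reads counted in the shared exons, so it overstates the level if there were any. Of the 2251 windows of 150 bases, the read length, in the canonical HSPA1A transcript, 1566 (69.6%) occur unchanged in HSPA1B, and these make up 66.1% of the windows of HSPA1B. That leaves 685 windows in which a read would belong to HSPA1A alone and 802 for HSPA1B. The windows stand for single reads, and the pairing of the reads was not taken into account. How reads with several places were counted is not given in the sources used here, so the level of each gene is uncertain, and part of the ratio may lie in the counting, which was not tested. Among the 44 genes only 3 others had a window with an exact copy elsewhere on the chromosomes of GRCh38. They were DNAJB6 (12% of its windows, in DNAJB6P1), HSPD1 (5.82%, in HSPD1P1) and HSPA8 (1.47%).

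HSPA1A was the only one of the 44 genes low enough for its reads to be recovered library by library. The mean of a gene with 1 read in all is fixed by the size factor of the library that holds the read, and 6 such values, each shared by 546 to 662 genes, gave size factors from 0.985 to 1.03. The whole reads that add up to the mean of HSPA1A have 1 solution, with 51, 49, 63, 41, 38 and 56 reads in the libraries A to F, ordered by size factor. Their median was 50 and the highest was less than double the lowest. The recovered libraries carry no sample name, so they were placed in neither group and no test was made on them.

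**Figure D1:**
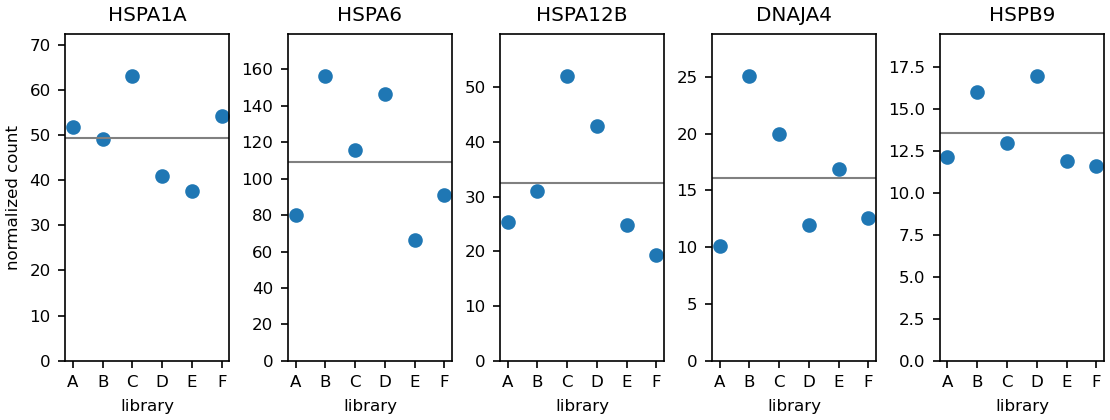
Normalized count of 5 low chaperone genes in each of the 6 unlabelled libraries A to F, 1 point a library, on linear axes from 0, with a grey line at the mean in the table. HSPA1A runs from 37.6 to 63.0, HSPA6 from 66.4 to 156, HSPA12B from 19.4 to 52.0, DNAJA4 from 10.1 to 25.0 and HSPB9 from 11.6 to 17.0.

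The J proteins were led by DNAJA1, a main partner of HSPA8, with a level of 5856 normalized counts per kilobase. It was 7.78 times as high as DNAJA2 (753), a factor that was 5.43 over the canonical transcripts and 4.35 over the coding parts. DNAJB1, the J protein that joins HSP70 in taking apart aggregates, had 605, DNAJC7, which also binds HSP90, 317 and DNAJB6, which holds back aggregation of polyglutamine proteins, 224. DNAJB1, DNAJC7 and DNAJB6 have long lists of annotated exons, and over the canonical transcript their levels were 2210, 2272 and 1350. The order below DNAJA1 thus depended on the length. DNAJA2 (1240) was the lowest J protein over the canonical transcripts, and DNAJC7 (2769) over the coding parts. BAG1, BAG3 and BAG2 had levels of 704, 460 and 432, and their means were 4976, 1260 and 2871. Over the coding parts they stood further apart, at 4808, 730 and 4535. With whole means divided by the exon length shared with no other gene, BAG2 was highest of the 3, at 773. Of its exonic bases 44.2% are shared, and any reads counted there were not taken out of its mean. None of the 3 reached the top 10% by level. The 7 further BAG proteins and HSP70 co-chaperones set beside them had a median of 853, from BAG4 at 298 to ST13 at 4311, and ST13, BAG6 and HSPBP1 were in the top 10%.

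Among the mitochondrial chaperones HSPD1 (HSP60; chromosome 2 from 197486584 to 197516737) was highest, with 4141 normalized counts per kilobase. HSPA9 (mortalin), the HSP70 of the mitochondrial matrix and motor of protein import, had 2817. HSPE1, the small lid of HSPD1, had a level of 1687 although its mean of 3076 was 10.3 times lower than the 31594 of HSPD1, since its exons are short. Per kilobase HSPD1 exceeded HSPE1 by a factor of 2.45, and of 1.83 over the coding parts. A limit on HSPE1 is that 17.9% of its exonic bases also belong to other genes, first the readthrough gene HSPE1-MOB4. TRAP1, the mitochondrial HSP90, had a level of 1180. HSP90AB1 was 21.1 times as high, or 10.6 times over the canonical transcripts and 11.8 times over the coding parts. TRAP1 shares 28.5% of its exonic bases with other genes. With whole means divided by the unshared exon length alone, HSP90AB1 was 15.1 times as high. DNAJA3, the J protein of the matrix, came last with 632. Of 11 further genes of mitochondrial import and folding, LONP1, a matrix protease, was highest at 2100 and TOMM70, the import receptor that docks cytosolic chaperones, had 1172. The nucleotide exchange factor GRPEL1 (449) was above its relative GRPEL2 (166).

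The 8 subunits of the cytosolic chaperonin were more even than HSP70 and prefoldin, the other groups of members with more than 5 genes, and all lay in the top 10%. CCT3 (chromosome 1 from 156308968 to 156367873) was highest with 7296 normalized counts per kilobase, and CCT6A followed with 6924. CCT4 had 5681, CCT7 5399, CCT8 4274 and CCT5 4102. TCP1 had a level of 3383 and CCT2 (chromosome 12 from 69585426 to 69601570) of 2703, the lowest. The highest thus exceeded the lowest by a factor of 2.70, which was 2.39 over the canonical transcripts and 2.42 over the coding parts, with CCT3 and CCT2 at the ends in all 3 cases. Among the smaller groups the factor over all exons was lower for the HSP90 co-chaperones (2.38), HSP90 (2.11) and BAG (1.63). It was higher for the mitochondrial chaperones (6.56), the small heat shock proteins (7.63) and the J proteins (26.1). These factors depended on the length, and over the canonical transcripts and the coding parts only HSP90 stayed below the chaperonin. Over the coding parts the factor was 5.79 for the co-chaperones and 6.58 for BAG (BAG1 over BAG3). For the J proteins it was 5.43 over the canonical transcripts (DNAJA1 over DNAJA2). In the assembled double ring the subunits are present in equal number. Together the subunits took 0.40% of all counts, more than HSP90 (0.35%) or HSP70 (0.29%). CCT6B, the testis form of CCT6A, had a level of 41.3, below the median of 114. The places between CCT3 and CCT2 varied with the length, with CCT7 (10480) above CCT6A (10306) over the canonical transcripts. CCT5 shares 30.8% of its exonic bases with another gene. Its whole mean over the unshared length alone gave 5924, above CCT7 (5399), with any reads in the shared part left in. The 4 pseudogenes of CCT6A held 575 normalized counts, 2.16% of its own mean and the largest such share of the 19 genes with named pseudogenes, and with them added it was still second.

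**Figure D2:**
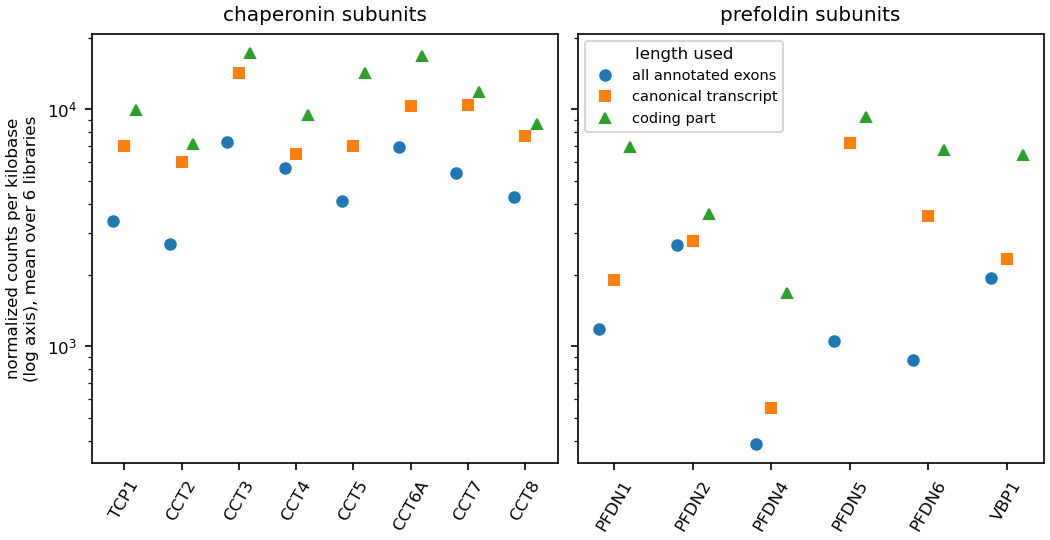
Levels of the chaperonin (left) and prefoldin (right) subunits per kilobase of all annotated exons (circles), of the canonical transcript (squares) and of its coding part (triangles), on a common log axis. CCT3 is the highest and CCT2 the lowest chaperonin subunit by each length, whereas the highest prefoldin subunit is PFDN2 by the first and PFDN5 by the other two, and PFDN4 is lowest throughout.

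Prefoldin was less even. PFDN2 had the highest level, 2684 normalized counts per kilobase, and VBP1 (prefoldin 3) the second, 1939. PFDN1 had 1184, PFDN5 1054, PFDN6 879 and PFDN4 387. The factor from PFDN4 to PFDN2 was 6.93. PFDN5, an alpha-type subunit known also as a MYC-binding protein, moved most with the length, from 1054 to 7211 over the canonical transcript, where it was 13.1 times as high as PFDN4. It shares 37.3% of its exonic bases with other annotated genes, and PFDN6 27.3%. PFDN4 was lowest by every length used, with a mean of 675 normalized counts. URI1, UXT and PDRG1, which belong to a prefoldin-like complex, had levels of 900, 1418 and 770, inside the range of the 6 prefoldin genes.

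Of the small heat shock proteins HSPB1 (HSP27) had a level of 2719 normalized counts per kilobase and was in the top 10%. Its relatives were scarcely detected, with HSPB9 at a mean of 13.6, HSPB6 at 5.97, CRYAB at 0.49 and HSPB2, HSPB8 and CRYAA listed at 0. HSPB11, which despite its name is a subunit of the intraflagellar transport machinery, had 356. HSF1 itself had a mean of 3416 and a level of 644, above HSF2 (347) and HSF4 (73.2), and HSBP1, which binds heat shock factors, had 616.

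The ER has its own set of chaperones, which were set beside the 44 genes. Those 10 took 0.81% of all counts, and CALR, with a level of 45191 normalized counts per kilobase, was above every cytosolic or mitochondrial chaperone. HSPA5 (BiP), the HSP70 of the ER, had a level of 5067, between those of HSPA8 and HSPA9, and HSP90B1 (GRP94) had 3020, between HSP90AA1 and TRAP1.

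**Figure D3:**
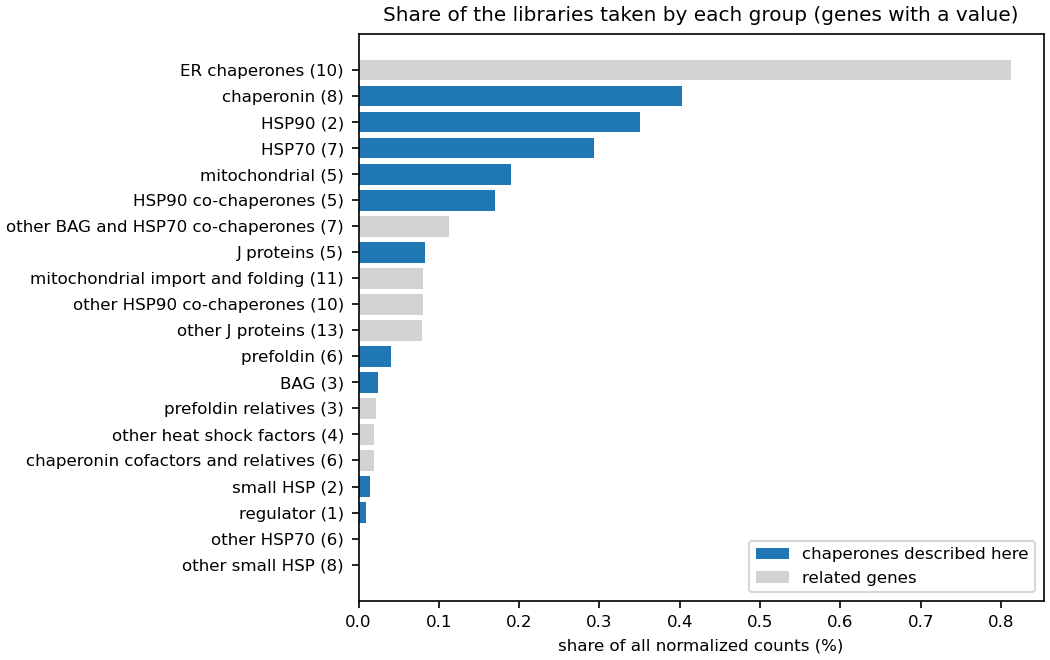
Share of all normalized counts, in percent, taken by each group of chaperone genes (blue) and by the related groups set beside them (grey), with the number of genes in brackets. The chaperonin (0.40%) has the longest blue bar, followed by HSP90 (0.35%) and HSP70 (0.29%), and the ER chaperones (0.81%) have the longest bar of all.

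Many chaperone genes begin close to a gene on the other strand. In GENCODE release 44, 13 of the 44 (29.5%) had the start of a protein-coding gene on the opposite strand within 1000 bases upstream, against 1600 of the 16127 protein-coding genes with a mean above 0 (9.92%). Among them were 5 chaperonin genes, TCP1 (109 bases from MRPL18), CCT4 (53 from COMMD1), CCT5 (32 from ATPSCKMT), CCT6A (81 from PSPH) and CCT7 (181 from PRADC1). Such pairs were also found for PFDN2, PFDN6, DNAJA1, DNAJA3, BAG1, HSPA1A, HSPB11 and HSF1. The larger set was not matched for level, so the shares compare unlike sets. Of the 44 genes 42 had a mean above 1000, whereas the median mean of the larger set was 653. The start was taken as the outermost annotated end of each gene, so pairs with inner starts are missed. HSPD1 and HSPE1 are therefore not counted, although RefSeq starts of HSPD1 lie 105 and 539 bases upstream of that of HSPE1 on the opposite strand. The neighbour of HSPA1A is HSPA1L, another HSP70 gene, with a level of 34.7.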

How the data were processed

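RNA of FUJIOKA cells was sequenced in 3 shNEG and 3 shSPINK2 libraries as paired reads of 150 bases. After quality control with FastQC, the authors aligned the reads with STAR (GRCh38), obtained read counts per gene from featureCounts and passed them to DESeq2. STAR 2.7.11 and DESeq2 1.40.0 are named in the submitters' processing notes. The annotation release, the strand setting and the treatment of reads with several places are not given in the sources used here. The value used is a signal, the mean over the 6 libraries of read counts that the authors divided by size factors. The fold change, standard error, statistic and p-value columns of the same deposited table hold the authors' comparison and were not used, so no test between the groups was made. The planned tests needed values per library.

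Members, lists and groups of genes were chosen with earlier results of these data known. Every member was named. Related genes were named as the extremes of their groups, and further ones (paralogues and partners of members) were chosen after their values were seen. Exon, canonical transcript and coding lengths came from GENCODE release 44 by gene ID without version, which matched 31833 of 32220 rows with a mean above 0 (98.8%). Of 79 related genes 78 were found. Windows of 150 bases were searched exactly on both strands of the 25 chromosomes of GRCh38. Reads per library were sought for genes with a mean from 1 to 120, as whole numbers whose weighted sum is the mean to its last digit. The search covered a width of at most 160 reads in each library, and solutions outside it were not sought. It was tested on simulated data, where 57 of 60 genes had a single and right solution, 3 had several and 0 were wrong. The simulated reads had Poisson noise and a group difference, without further spread between libraries. Intervals are exact Poisson intervals and cover counting error only, since no molecular identifiers are described. Lengths, pseudogenes and rank filters were varied. The calculations used pandas 2.3.3 and numpy 2.4.6 under Python 3.11.15, with intervals from scipy 1.17.1 and plots from matplotlib 3.10.9.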

Additional observations from a re-analysis of the deposited data

How the results depend on the processing

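The lengths moved the ratios most. Over canonical transcripts in place of all exons, the factor from lowest to highest was 2.39 for the chaperonin, 13.1 for prefoldin (PFDN5 over PFDN4) and 2.78 for the HSP90 co-chaperones (PTGES3 over FKBP4), and over coding parts 2.42, 5.54 and 5.79, against 2.70, 6.93 and 2.38. HSP90AB1 over HSP90AA1 was 1.56 and 1.25, HSPD1 over HSPE1 2.55 and 1.83, HSPA8 over HSP90AA1 1.71 and 1.36 (1.26 with all exons), HSPA8 over HSPA1B 63.5 and 56.7, and HSPA9 over HSPD1 0.44 and 0.74 (0.68 with all exons). A further alternative, chosen after seeing the data, divided the whole means by the exon length shared with no other gene. With it the co-chaperone factor was 2.31 and these pairs were at 2.03, 2.05, 1.43, 22.1 and 0.68. Adding the means of named pseudogenes left all 8 ratios within the counting interval, and none of these 5 pairs changed order in these settings. The number of members in the top 10% was 30, 28 and 25 with canonical lengths, coding lengths and genes with a mean of at least 10, against 27. Counting error is small at these depths, and leaving out a library, other normalizations and other count filters were not run. The spread between libraries is known only for HSPA1A and the other low genes whose reads were recovered, and not within the groups. A search within 20% of the mean gave no solution for HSPA1A. It could not return the one given, whose normalized counts run from 37.6 to 63.0 about a mean of 49.4, so it is no check on it. No paired analysis was possible because the table used holds 1 mean over all libraries.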

Other observations

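Reads recovered for other low genes are given for the same unlabelled libraries A to F, in that order. SPINK2, the gene the shRNA targets, had 6, 53, 63, 56, 9 and 7 reads, which fall into separate clusters of 3 libraries each, and no library was assigned to a group from them. HSPA6 had 79, 156, 116, 147, 67 and 94 reads and HSPA12B, an HSP70 relative without the usual peptide-binding part, 25, 31, 52, 43, 25 and 20. DNLZ, a helper of HSPA9, had 7, 39, 36, 48, 25 and 25 reads. For DNAJA4 they were 10, 25, 20, 12, 17 and 13, and for HSPB9 12, 16, 13, 17, 12 and 12. HSPA1L, at a mean of 95.8, had 3 solutions and is left out.

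Of 99 pseudogenes named after 19 of the chaperone genes, 68 had a mean above 0. The highest was CCT6P1 with 397 normalized counts, followed by HSP90AA2P with 87.6, PTGES3P1 with 78.3 and HSPD1P1 with 63.3. For HSPE1, with 26 named pseudogenes, they summed to 31 counts, 1.01% of the mean of HSPE1.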
